A study of Bos taurus with 9 samples.

Results

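The 9 genes described here encode the 3 peroxisome proliferator-activated receptors (PPARs), PPARG, PPARA and PPARD, and 6 of their coregulators, PPARGC1A, PPARGC1B, NRIP1, MED1, NCOA1 and NCOA2. They were taken by gene symbol from a table of 21512 genes, and each carried an NCBI Gene ID of the same symbol. The samples were bovine fibroblasts of wild-type genotype grown from ear skin (BEFs, day 0) and the same line after 3 or 6 days of chemical induction (CiADCs-3d and CiADCs-6d), with 3 samples in each group. Induction used the mixture RVB in N2B27 medium, made of 10 µM RepSox (a blocker of the TGF-beta type I receptor kinase), 500 µg/mL VPA (a histone deacetylase inhibitor) and 1 µM TTNPB (a retinoic acid receptor agonist). The maintenance medium with rosiglitazone, a PPARG ligand, was applied only after the last sampled day. No cells were kept for the same time without the compounds, so the compounds, the medium and time in culture cannot be told apart. Neither the labels nor the methods say whether the samples of a group came from separate animals or inductions, so the p-values measure only the spread between these samples.

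PPARs are nuclear receptors that bind fatty acids and their derivatives and sit on DNA as dimers with a retinoid X receptor. PPARG drives fat cell formation and lipid storage, PPARA turns on fatty acid oxidation in liver, heart and brown fat, and PPARD does so in muscle and many other tissues. When a ligand binds, the receptor exchanges corepressors for coactivators. Members of the p160 family (NCOA1 and NCOA2) bring in histone acetyltransferases, the PGC-1 proteins (PPARGC1A and PPARGC1B) couple receptors to mitochondrial genes, and MED1 links the receptor to Mediator and RNA polymerase II. NRIP1, also called RIP140, binds the active receptor and recruits repressors, and in mouse fat it holds down oxidative genes.

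Total counts per sample ranged over 18509244 to 24071580. Replicates differed more among induced cells than among BEFs. The chi-square per degree of freedom between replicates, where 1 would be counting noise alone, was 2.4 to 8.83 in BEFs, 14.8 to 44.5 in CiADCs-3d and 13.2 to 50 in CiADCs-6d, and on both days the sample numbered 1 was the farthest from the other 2 of its day. Fibroblast markers (10 of 10 counted) summed to 61869 to 64579 CPM (counts scaled to library size) in BEFs, 23152 to 34170 CPM in CiADCs-3d and 15935 to 21215 CPM in CiADCs-6d. Most of it was COL1A1, COL1A2, COL3A1 and VIM. PDGFRA and PDGFRB went the other way on day 3. They stood at 701 to 759 and 169 to 232 CPM in BEFs, against 1149 to 1497 and 253 to 384 CPM in CiADCs-3d. In the test described below, 2 of the 10 were higher and 5 lower than in BEFs on day 3. These are 20% and 50%, beside 30.9% and 29.1% of all genes. On day 6 they were 0% and 70%, beside 35.6% and 31.9%. Markers of the mature adipocyte (6 of 6 counted, 5 of them also among the PPARG targets below) were low in every group but did not move as one. They summed to 20.3 to 24.5, 14.2 to 23.5 and 12.7 to 13.8 CPM in BEFs, CiADCs-3d and CiADCs-6d. Of the 5 tested, 1 (ADIPOQ) was higher and 2 (FABP4 and CIDEC) were lower than in BEFs on each day. These are 20% and 40%, beside 30.9% and 29.1% of all genes on day 3 and 35.6% and 31.9% on day 6. Immune markers (5 of 6 counted) summed to 1.17 to 1.87 CPM in BEFs, 45.5 to 47.5 CPM in CiADCs-3d and 63.9 to 80.1 CPM in CiADCs-6d, most of it CD14 in the induced cells, while the leukocyte gene PTPRC had no count in any sample. All 3 tested (CD14, CD68 and CSF1R) were higher on both days, 100%, beside 30.9% and 35.6% of all genes. They held at most 1.11, 0.876 and 0.178 CPM in BEFs. They passed the filter on low counts only through induced samples and could hardly be called lower. Endothelial markers (5 of 5 counted) summed to 12.3 to 18.2, 311 to 461 and 195 to 320 CPM, most of it VWF in the induced cells. PECAM1 and CDH5 went the other way. PECAM1 held 3.40 to 5.69 CPM in BEFs, and at most 3.35 CPM on day 3 and 3.30 CPM on day 6. CDH5 held 0.25 to 0.745 CPM in BEFs, and at most 0.053 and 0.162 CPM on these days. Of the 3 tested, 2 were higher and 0 lower on day 3 (66.7% and 0%, beside 30.9% and 29.1% of all genes). On day 6, 1 was higher and 1 lower (33.3% each, beside 35.6% and 31.9%). Epithelial markers (4 of 5 counted in BEFs, 5 of 5 in the induced cells) summed to 65.1 to 89.5, 92.1 to 118 and 90.0 to 103 CPM. Most of it was CDH1 (26.4 to 30.4, 72.1 to 93.3 and 54.8 to 60.2 CPM) and KRT5 (23.9 to 43.0, 10.1 to 20.5 and 29.8 to 36.9 CPM). KRT8 held 8.2 to 14.2, 2.07 to 2.33 and 1.38 to 2.52 CPM, so the list did not move as one. Of the 4 tested, 1 was higher and 3 lower on day 3 (25% and 75%, beside 30.9% and 29.1% of all genes). On day 6, 1 was higher and 1 lower (25% each, beside 35.6% and 31.9%). Muscle markers (2 of 4 counted) summed to 5.38 to 6.80, 1.33 to 3.93 and 0.869 to 1.89 CPM. The part of these markers in the results below was not tested.

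All 9 genes passed the filter on low counts. PPARGC1A, with 13, 2 and 6 counts in the BEF samples, passed only through its induced samples. It could hardly be called lower than in BEFs, and it is among the genes counted as higher below. At an adjusted p under 0.05 in edgeR's quasi-likelihood test, adjusted over 14020 genes, 4 of the 9 were higher and 2 lower in CiADCs-3d than in BEFs, against 30.9% and 29.1% of all genes tested. In CiADCs-6d 5 were higher and 2 lower than in BEFs, against 35.6% and 31.9% of all genes. Between the days 2 were higher and 1 lower in CiADCs-6d than in CiADCs-3d, against 14.4% and 13.6%. With a change of at least 2-fold required as well, 4 genes were higher and 0 lower on either day against BEFs, where 18.2% and 9.94% of all genes passed on day 3 and 21.9% and 13.4% on day 6. Between the days 0 were higher and 1 lower by that rule, against 4.09% and 3.22%. Every CiADCs-3d sample lay above every BEF sample for 5 of the 9 genes and below for 2, against 35.1% and 35.4% of all genes. For CiADCs-6d against BEFs these numbers were again 5 and 2 (37.7% and 35% of all genes), and for CiADCs-6d against CiADCs-3d they were 4 and 2 (19.1% and 18%). The median log2 fold change of the 9 genes was 0.26 on day 3, 0.64 on day 6 and 0.11 between the days, beside 0.01, 0.03 and 0.01 over all genes tested. In bulk RNA, a change in the share of cells that express a gene and a change in RNA per cell cannot be told apart.

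**Figure D1:**
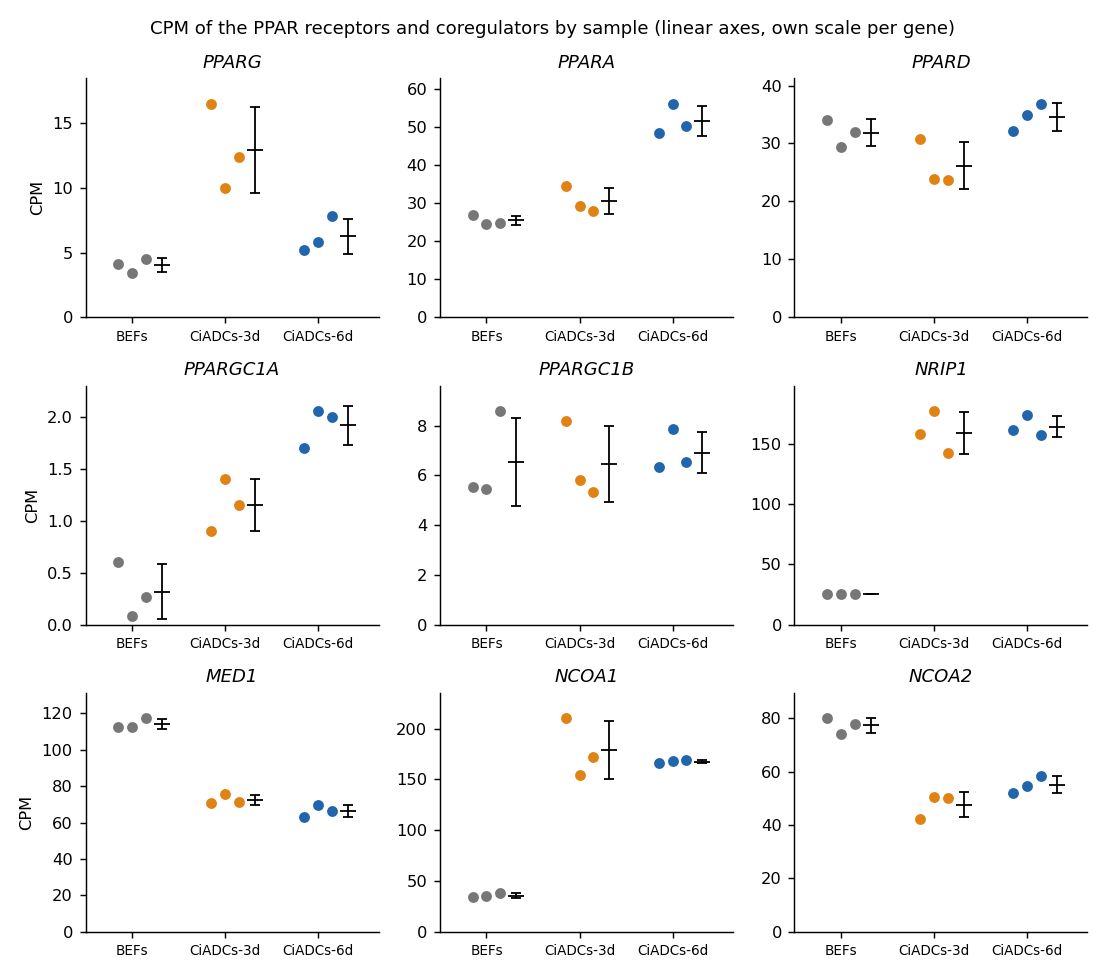
Expression of the 9 genes in each of the 9 samples, as TMM-scaled CPM on linear axes that start at 0, with 1 panel per gene. Coloured points are samples in the order of their replicate number, and black bars are the mean ± SD of 3 samples. PPARG was highest on day 3 and PPARA on day 6. Against BEFs, NRIP1 and NCOA1 were higher on both days, and MED1 and NCOA2 were lower on both.

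PPARG (ncbi_281993) peaked on day 3. Its level was 4.15, 3.42 and 4.49 CPM in BEFs, 16.5, 9.95 and 12.3 CPM in CiADCs-3d and 5.16, 5.81 and 7.79 CPM in CiADCs-6d. No 2 groups overlapped, and the day 3 sample with the most PPARG was replicate 1. The counts behind these levels were 82 to 101 in BEFs, 205 to 310 in CiADCs-3d and 112 to 144 in CiADCs-6d, so this is a modestly expressed gene. PPARG was 3.21-fold higher in CiADCs-3d than in BEFs (log2 fold change 1.68, standard error 0.22, adjusted p = 4.03e-05), and that call held under all 20 alternatives. In CiADCs-6d it was 1.55-fold higher than in BEFs (0.64, standard error 0.23, adjusted p = 0.0264). That call was lost when the first or the second BEF sample was left out (adjusted p = 0.058 and 0.105), when the third CiADCs-6d sample was left out (0.13) and in the unfiltered limma fit of log2(FPKM + 1) (0.0524), with adjusted p between 0.00354 and 0.13 over the alternatives. Set against CiADCs-3d, PPARG in CiADCs-6d was lower, with a log2 fold change of -1.05 (SE 0.22, adjusted p = 0.00497). Without the samples numbered 1 of both days, an alternative chosen after the data were seen, the change between the days was -0.77 (adjusted p = 0.00545).

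PPARA (ncbi_281992) changed later than PPARG. Its samples held 26.8, 24.6 and 24.9 CPM in BEFs, 34.5, 29.2 and 27.9 CPM in CiADCs-3d and 48.4, 56.1 and 50.4 CPM in CiADCs-6d. Every day 6 sample lay above every day 3 sample, and these in turn lay above every BEF sample. The receptor gene was 2.03-fold higher in CiADCs-6d than in BEFs (log2 fold change 1.02, standard error 0.11, adjusted p = 5.7e-06) and 1.69-fold higher than in CiADCs-3d (0.76, standard error 0.11, adjusted p = 0.000802). On day 3 the difference from BEFs was 0.26 (standard error 0.11, adjusted p = 0.0618), which did not pass, although 7 of 20 alternatives called it, with adjusted p between 0.0312 and 0.508.

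PPARD (ncbi_353106) was not called against BEFs on either day. Levels were 34.1, 29.4 and 31.98 CPM in BEFs, 30.8, 23.9 and 23.7 CPM in CiADCs-3d and 32.1, 34.9 and 36.8 CPM in CiADCs-6d. The BEFs overlapped with both induced groups, whereas every day 6 sample lay above every day 3 sample. Against BEFs the log2 fold change was -0.28 in CiADCs-3d (standard error 0.12, adjusted p = 0.0669) and 0.12 in CiADCs-6d (standard error 0.12, adjusted p = 0.407). The first CiADCs-3d sample held the most PPARD of its day, and with it left out the day 3 difference was -0.40 and was called (adjusted p = 0.0105). PPARD was higher in CiADCs-6d than in CiADCs-3d by 0.40 (standard error 0.12, adjusted p = 0.0311). This call was lost under 7 of 20 alternatives, among them the fit of only those 2 groups (adjusted p = 0.0766) and the omission of samples 1 or 3 of BEFs or of samples 2 or 3 of either induced group (adjusted p up to 0.142).

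Compared per length of transcript, the balance of the 3 receptors shifted on day 3 and again on day 6. By day 6 the shares of PPARG and PPARD had moved back toward BEFs, while that of PPARA was at its highest. The authors' FPKM values, which divide by gene length and library size, summed over the 3 receptors to 15.9 ± 1.06 FPKM in BEFs, 19.7 ± 3.67 FPKM in CiADCs-3d and 21.7 ± 1.82 in CiADCs-6d (SD, n = 3 each). PPARG made up 13.5%, 12.7% and 14.6% of that sum in BEFs, 38.4%, 31.6% and 37.2% in CiADCs-3d and 14.6%, 14.1% and 18.9% in CiADCs-6d. Its share was thus 22.2 percentage points higher in CiADCs-3d than in BEFs, with no overlap (exact permutation test, two-sided p = 0.1, the smallest that 3 against 3 samples allow). On day 6 the share overlapped with that of BEFs (difference 2.31 percentage points, exact p = 0.3). PPARD gave 59.8 ± 1.72% of the sum in BEFs, 40.3 ± 1.44% on day 3 and 48.9 ± 1.72% on day 6, and no 2 of these groups overlapped. PPARA gave 35.2 ± 3.74% in CiADCs-6d, above every sample of CiADCs-3d (23.9 ± 2.28%) and of BEFs (26.6 ± 1.19%). For PPARA the length implied by its count and FPKM varied between 5.41 and 7.12 kb from sample to sample, so its FPKM did not move in step with its count.

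**Figure D2:**
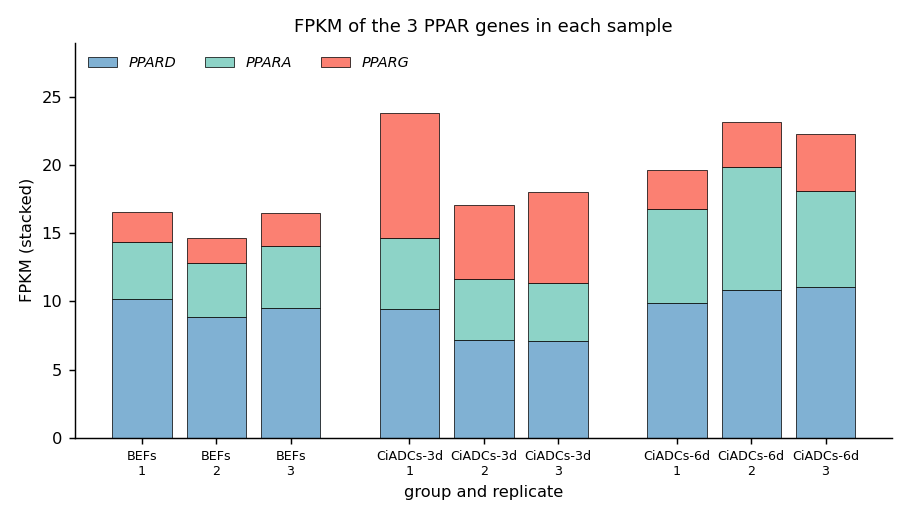
FPKM of PPARD, PPARA and PPARG stacked for each sample, on a linear axis from 0, with samples ordered by group and replicate. The PPARG section is largest in the 3 CiADCs-3d samples (5.40 to 9.17 FPKM, against 1.86 to 2.41 FPKM in BEFs), and the PPARA section is largest in the 3 CiADCs-6d samples (6.93 to 9.01 FPKM).

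The heterodimer partners of the PPARs changed by less than 2-fold. RXRA, the broadly expressed retinoid X receptor, was lower in CiADCs-3d than in BEFs by 0.67 on the log2 scale (adjusted p = 8.26e-05), and lower in CiADCs-6d by 0.51 (adjusted p = 0.000589). RXRB, also broadly expressed, was higher by 0.36 on day 3 (adjusted p = 0.00965) and by 0.37 on day 6 (adjusted p = 0.00642). Every induced sample lay below every BEF sample for RXRA and above every BEF sample for RXRB. RXRG had no count in any sample.

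PPARGC1A (ncbi_338446), which encodes the cold- and exercise-induced coactivator PGC-1α, was the scarcest of the 9 genes in every group. It had 13, 2 and 6 counts in the 3 BEF samples, 17, 29 and 27 in CiADCs-3d and 37, 45 and 37 in CiADCs-6d. In CPM these were 0.606, 0.0834 and 0.267 in BEFs, 0.903, 1.41 and 1.15 in CiADCs-3d and 1.71, 2.06 and 2.003 in CiADCs-6d. The 3 groups did not overlap. PPARGC1A was higher in CiADCs-3d than in BEFs by 1.87 (standard error 0.50, adjusted p = 0.00626) and in CiADCs-6d by 2.60 (standard error 0.48, adjusted p = 0.000429) on the log2 scale. The size of these differences hung on single BEF samples. Without BEFs replicate 1 they were 2.70 and 3.42, without BEFs replicate 2 they were 1.40 and 2.12, and both stayed called. The day 6 level was 0.73 above the day 3 level on the log2 scale, which did not pass (standard error 0.41, adjusted p = 0.202).

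PPARGC1B (ncbi_514750), which encodes the related coactivator PGC-1β, showed no detectable difference. Its samples held 5.54, 5.46 and 8.57 CPM in BEFs, 8.18, 5.83 and 5.32 CPM in CiADCs-3d and 6.32, 7.87 and 6.55 CPM in CiADCs-6d, and all groups overlapped. The log2 fold change against BEFs was -0.02 in CiADCs-3d (adjusted p = 0.937), with an interval of 2 standard errors from -0.48 to 0.43, and 0.08 in CiADCs-6d (adjusted p = 0.76), from -0.37 to 0.53. Per length, PPARGC1A reached 0.463 ± 0.0513 FPKM in CiADCs-6d, still below PPARGC1B at 0.66 ± 0.0866 FPKM in the same cells (SD, n = 3).

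NRIP1 (ncbi_524960) had the largest rise of the coregulators that was backed by ample counts. It stood at 25.1, 25.5 and 25.1 CPM in BEFs, at 158, 177 and 142 CPM in CiADCs-3d and at 161, 174 and 157 CPM in CiADCs-6d. The lowest induced sample thus held 142 CPM and the highest BEF sample 25.5 CPM. NRIP1 was 6.31-fold higher in CiADCs-3d than in BEFs (log2 fold change 2.66, standard error 0.11, adjusted p = 1.29e-09) and 6.51-fold higher in CiADCs-6d (2.70, standard error 0.11, adjusted p = 9.56e-10). Between day 6 and day 3 the difference was 0.05, within an interval from -0.15 to 0.24 (adjusted p = 0.763). PPARG was lower on day 6 than on day 3, so NRIP1 transcript per PPARG transcript was highest on day 6. The ratio of their FPKM was 1.51, 1.86 and 1.39 in BEFs, 2.38, 4.42 and 2.87 in CiADCs-3d and 7.76, 7.46 and 5.02 in CiADCs-6d, with no overlap between any 2 groups (exact two-sided p = 0.1 in each of 3 comparisons, the smallest possible).

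MED1 (ncbi_520734), the Mediator subunit that nuclear receptors contact, was lower on both days. It held 113, 113 and 117 CPM in BEFs, 70.6, 75.7 and 71.1 CPM in CiADCs-3d and 63.3, 69.7 and 66.3 CPM in CiADCs-6d. All induced samples lay below all BEF samples. The fall was 0.66 on the log2 scale in CiADCs-3d (standard error 0.09, adjusted p = 3.46e-05) and 0.78 in CiADCs-6d (standard error 0.09, adjusted p = 6.05e-06), so MED1 was 1.58-fold and 1.72-fold lower than in BEFs. Day 6 samples also lay below day 3 samples, by 0.12, but this did not pass (adjusted p = 0.297). Of the 28 other Mediator subunits tested, 3 were higher and 8 lower on day 3, with 4 higher and 11 lower on day 6, and median log2 fold changes were -0.22 and -0.26. These are 10.7% higher and 28.6% lower on day 3, beside 30.9% and 29.1% of all genes, and 14.3% and 39.3% on day 6, beside 35.6% and 31.9%. The share of subunits called lower on day 3 was thus close to that over all genes. MED21 went the other way from MED1, higher by 1.13 on day 3 and by 1.64 on day 6 (adjusted p = 4.28e-06 and 1.29e-07). MED27 was lower by 0.49 and 1.05 on the 2 days (adjusted p = 0.00991 and 3.94e-05). On day 6 MED26 was higher by 1.01 and MED29 lower by 1.01 (adjusted p = 4.58e-05 and 0.00652).

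NCOA1 and NCOA2, both p160 coactivators, moved in opposite directions. NCOA1 (ncbi_525346), also called SRC-1, was at 34.2, 34.9 and 38.1 CPM in BEFs, 210, 154 and 172 CPM in CiADCs-3d and 166, 168 and 169 CPM in CiADCs-6d. It was 5.01-fold higher in CiADCs-3d than in BEFs (log2 fold change 2.32, standard error 0.12, adjusted p = 1.02e-08) and 4.69-fold higher in CiADCs-6d (2.23, standard error 0.12, adjusted p = 1.13e-08), with no overlap. NCOA2 (ncbi_508162), also called TIF2 or GRIP1, was at 79.9, 74.1 and 77.8 CPM in BEFs, 42.2, 50.5 and 49.99 CPM in CiADCs-3d and 52.1, 54.7 and 58.4 CPM in CiADCs-6d. Every induced sample lay below every BEF sample. NCOA2 was lower by 0.70 in CiADCs-3d (standard error 0.10, adjusted p = 7.23e-05) and by 0.49 in CiADCs-6d (standard error 0.10, adjusted p = 0.000886). Neither gene differed between the days past the threshold (adjusted p = 0.559 for NCOA1 and 0.134 for NCOA2).

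Per length, NCOA2 was ahead of NCOA1 in BEFs and far behind it after induction. NCOA1 FPKM over NCOA2 FPKM was 0.704, 0.742 and 0.797 in BEFs, 7.85, 4.84 and 5.43 in CiADCs-3d and 5.05, 4.86 and 4.71 in CiADCs-6d. NCOA1 made up 85.3 ± 3.01% of the sum of both in CiADCs-3d and 83.0 ± 0.48% in CiADCs-6d, with 42.8 ± 1.52% for BEFs (SD, n = 3 each, exact two-sided p = 0.1 against BEFs on either day, the smallest possible). NCOA3, the third p160 gene and not among the 9, rose too, by 1.41 on day 3 and by 1.09 on day 6 (adjusted p = 1.76e-07 and 1.25e-06).

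**Figure D3:**
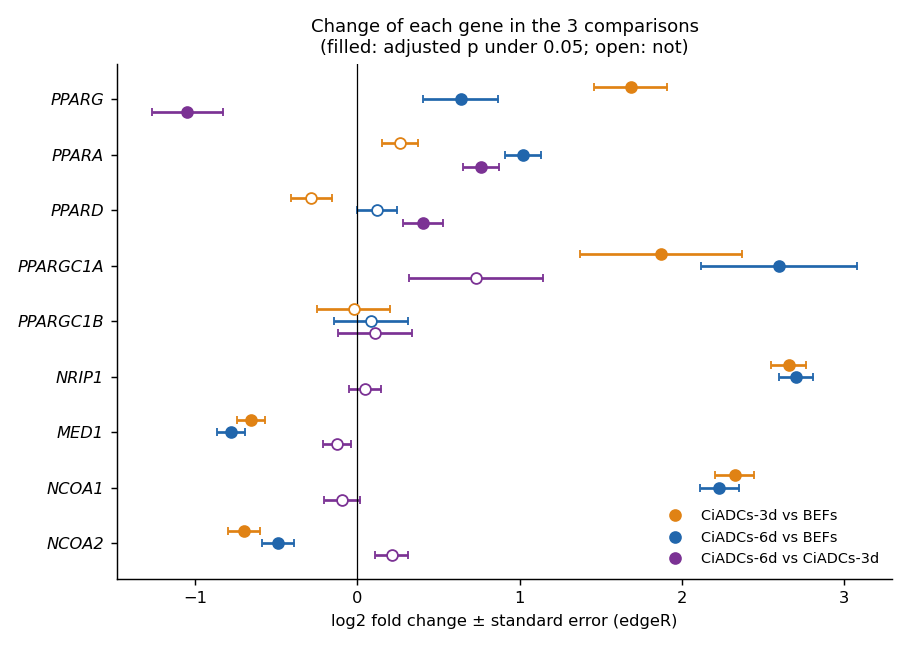
Log2 fold change of each gene with its standard error in the 3 comparisons, from edgeR. Filled points passed an adjusted p of 0.05 and open points did not. NRIP1 and NCOA1 lie above 2 on both days against BEFs with almost no change between the days, MED1 and NCOA2 lie below 0 on both days, and PPARG is the only one of the 9 that was called lower on day 6 than on day 3.

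The order of the 9 genes by FPKM was rearranged. In BEFs MED1 led with 20.1 FPKM, followed by PPARD (9.52) and NCOA2 (9.12), whose samples overlapped, then NCOA1 (6.81), PPARA (4.23), NRIP1 (3.39), PPARG (2.17), PPARGC1B (0.603) and PPARGC1A (0.08). In CiADCs-3d NCOA1 led with 33.8 FPKM, followed by NRIP1 (21.7) and MED1 (12.98). The next 4, PPARD (7.91), PPARG (7.09), NCOA2 (5.67) and PPARA (4.66), each overlapped with the next in order. In CiADCs-6d NCOA1 (32.4), NRIP1 (22.6) and MED1 (11.9) kept the first 3 places, and PPARD (10.6), PPARA (7.65), NCOA2 (6.66) and PPARG (3.46) followed with no overlap between neighbours. So a corepressor and a p160 coactivator that ranked below PPARD in the starting fibroblasts stood above all 3 receptors after induction. The ratio of MED1 FPKM to NCOA1 FPKM was 0.393 ± 0.0716 on day 3 and 0.367 ± 0.0169 on day 6 of induction, against 2.95 ± 0.119 in BEFs.

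The other general coregulators were mixed. Of 9 further coactivators tested, 2 were higher and 5 lower on day 3, with 1 higher and 3 lower on day 6 (median log2 fold changes -0.35 and -0.12). These are 22.2% higher and 55.6% lower on day 3, beside 30.9% and 29.1% of all genes. On day 6 they are 11.1% and 33.3%, beside 35.6% and 31.9%, so the share lower is near that over all genes. PPRC1, a relative of the PGC-1 genes, was lower by 0.88 on day 3 (adjusted p = 1.63e-05) and overlapped with BEFs on day 6. CARM1, an arginine methyltransferase that works with p160 proteins, was lower by 0.63 on day 3 and by 0.68 on day 6 (adjusted p = 0.000281 and 0.000116). SMARCD3, a subunit of the SWI/SNF remodeller, was lower by 0.60 on day 6 (adjusted p = 0.00162). Of 9 corepressors tested, 3 were higher and 5 lower on day 3, with 3 higher and 3 lower on day 6 (medians -0.33 and 0.17). The day 3 shares are 33.3% and 55.6%, beside 30.9% and 29.1% of all genes. On day 6 the 33.3% in each direction is near the 35.6% and 31.9% of all genes. CTBP2, a corepressor, was higher by 0.48 on day 3 and by 0.72 on day 6 (adjusted p = 0.00573 and 0.000276). GPS2, a subunit of a corepressor complex, was lower by 0.77 on day 3 and by 1.33 on day 6 (adjusted p = 0.00511 and 9.49e-05). SIRT1, a deacetylase that in mouse holds PPARG down, was lower on day 3, at 7.76 ± 1.25 CPM in CiADCs-3d, against 16.5 ± 1.11 CPM in BEFs (adjusted p = 0.00017), and was 1.27 higher on the log2 scale in CiADCs-6d than in CiADCs-3d (adjusted p = 0.000528).

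Factors known to act before PPARG in fat cell formation were mostly higher. Of 13 tested, 10 were higher and 1 lower on day 3, with 8 higher and 1 lower on day 6, and median log2 fold changes were 1.35 and 1.38. The shares higher were 76.9% and 61.5%, beside 30.9% and 35.6% of all genes. KLF15, at most 0.292 CPM in BEFs, passed the filter only through induced samples and could hardly be called lower. CEBPD, an early adipogenic factor, was higher by 3.72 on day 3 (adjusted p = 3.75e-10) and 3.34 on day 6 (adjusted p = 6.59e-10). CEBPB was higher by 1.83 and 2.27, KLF4 by 2.28 and 3.02 and KLF9 by 2.44 and 2.99, and all 3 were higher on day 6 than on day 3 (adjusted p = 0.0317, 0.00417 and 0.00375), unlike PPARG. Factors known to hold fat cell formation down were mixed. Of 9 tested, 3 were higher and 2 lower on day 3, and 4 were higher and 1 lower on day 6, so that 33.3% and 44.4% were higher, beside the same 30.9% and 35.6%. FOXC2, a forkhead factor, had the largest change of the list. It was at 0.513, 0.834 and 0.489 CPM in BEFs, 6.11, 3.11 and 3.36 CPM in CiADCs-3d and 4.70, 7.92 and 8.72 CPM in CiADCs-6d, higher than in BEFs by 2.75 and 3.51 (adjusted p = 5.42e-05 and 4.4e-06). WNT10B, an anti-adipogenic Wnt ligand, was higher by 3.26 and 3.29 (adjusted p = 6.59e-09 and 4.92e-09), and SMAD3, the TGF-beta effector, by 2.33 and 2.69. KLF2, a repressor of PPARG in mouse, stood at 11.5 ± 2.26 CPM in CiADCs-3d, against 29.8 ± 6.05 CPM in BEFs (adjusted p = 2.9e-05). On day 6 it overlapped with BEFs again.

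Known adipocyte targets of PPARG did not move as one. Of 22 tested, 11 were higher and 4 lower on day 3, with 14 higher and 3 lower on day 6, and medians of 0.93 and 1.16. The shares higher were 50% and 63.6%, beside 30.9% and 35.6% of all genes. CD36, MGLL, DGAT2 and CEBPA held at most 0.083, 0.311, 0.885 and 0.652 CPM in BEFs and passed the filter only through induced samples. CIDEC passed only through the BEF samples. Such genes could hardly be called in the other direction, which limits what these shares show. LPL, lipoprotein lipase, followed the same order of groups as PPARG. It was at 3.31, 2.92 and 3.33 CPM in BEFs, 13.9, 15.6 and 19.9 CPM in CiADCs-3d and 8.90, 6.73 and 6.98 CPM in CiADCs-6d, and its fall between the days was 1.13 on the log2 scale (adjusted p = 0.00108). CD36, a fatty acid translocase, was counted in 1 of 3 BEF samples and held 6.64, 2.43 and 1.70 CPM in CiADCs-3d and 4.70, 11.8 and 7.36 CPM in CiADCs-6d. FABP4, the fatty acid binding protein that is a classical PPARG target, went the opposite way. It was at 10.9, 10.3 and 11.6 CPM in BEFs, 8.13, 2.09 and 5.79 CPM in CiADCs-3d and 1.38, 0.503 and 0.704 CPM in CiADCs-6d, lower than in BEFs by 1.04 on day 3 (adjusted p = 0.0305) and 3.64 on day 6 (adjusted p = 1.8e-05).

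Among the other best known PPARG targets, ADIPOQ (adiponectin) was higher, at 4.85 ± 0.431 CPM on day 3 and 3.97 ± 0.384 CPM on day 6, against 1.15 ± 0.714 CPM in BEFs (adjusted p = 0.000181 and 0.000485). PLIN1, the coat protein of large lipid droplets, was at 3.66 ± 0.925 CPM on day 3 and 3.56 ± 0.29 CPM on day 6, against 4.71 ± 0.429 CPM in BEFs, and was not called (adjusted p = 0.157 and 0.113). CIDEC, which fuses lipid droplets, was at most 0.255 CPM in any induced sample, against 0.606 to 1.999 CPM in BEFs (adjusted p = 0.00472 on day 3 and 0.000554 on day 6). ACSL1, an acyl-CoA synthetase, was higher by 2.72 and 2.48 (adjusted p = 2.03e-08 and 3.4e-08). OLR1, a scavenger receptor that macrophages and endothelium also make, was at 32.6, 7.53 and 13.2 CPM in CiADCs-3d and 23.9, 61.3 and 41.1 CPM in CiADCs-6d, against 1.20 to 1.38 CPM in BEFs. In the same samples CD14 held 42.3, 43.8 and 40.6 CPM on day 3 and 69.0, 58.3 and 57.8 CPM on day 6. VWF held 304, 453 and 345 CPM on day 3 and 315, 188 and 231 CPM on day 6. A relation of OLR1 to either gene was not tested.

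Genes of fatty acid oxidation and fasting known as targets of PPARA or PPARD were led by a few large rises. Of 17 tested, 11 were higher and 1 lower on day 3, with 8 higher and 1 lower on day 6 (medians 0.41 and 0.20). The shares higher were 64.7% and 47.1%, beside 30.9% and 35.6% of all genes. The day 3 number was 7 without BEFs replicate 1 or without BEFs replicate 2. Between the days 2 were higher and 5 lower on day 6. ANGPTL4, a secreted inhibitor of lipoprotein lipase that all PPARs can induce, was higher by 6.68 in CiADCs-3d (standard error 0.18, adjusted p = 8.42e-11) and by 7.10 in CiADCs-6d (standard error 0.19, adjusted p = 6.47e-11). It held 592 ± 84.7 CPM on day 3 and 796 ± 119 CPM on day 6, against 5.78 ± 0.776 CPM in BEFs. PDK4, the kinase that shuts pyruvate out of oxidation, was higher by 4.62 and 4.28 (adjusted p = 7.11e-10 and 1.08e-09). CPT1A and CPT2, which carry fatty acids into mitochondria, were higher by 1.19 and 2.95 on day 3 and by 0.90 and 1.95 on day 6. SLC25A20, the carnitine carrier of the inner mitochondrial membrane, was higher by 1.40 and 0.84 (adjusted p = 3.45e-06 and 0.000192). The fall of CPT2 between the days was 1.00 on the log2 scale (adjusted p = 0.00176).

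**Figure D4:**
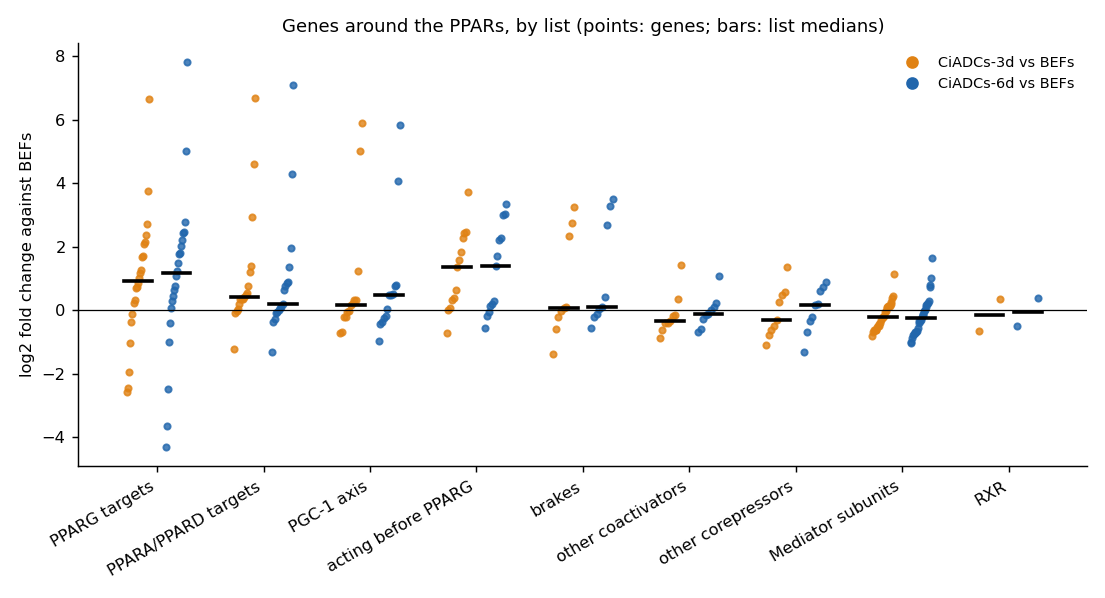
Log2 fold change against BEFs of the genes in 9 lists around the PPARs, with 1 point per gene tested, orange for CiADCs-3d and blue for CiADCs-6d, and a black bar at the median of each list. The medians lie highest for factors acting before PPARG (1.35 and 1.38) and for PPARG targets (0.93 and 1.16), and the spread within the target lists is wide. The highest point among PPARG targets is CD36, whose fold change rests on a near-zero level in BEFs.

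Among transcription factors partnered by the PGC-1 coactivators and genes downstream of them, a few had large rises. Of 13 tested, 3 were higher and 2 lower on day 3, with 6 higher and 3 lower on day 6 (medians 0.16 and 0.47). The 23.1% higher and 15.4% lower on day 3 lie below the 30.9% and 29.1% of all genes, and the 46.2% and 23.1% on day 6 stand beside 35.6% and 31.9%. The number lower on day 6 was 1 when the first or second BEF sample or the third CiADCs-6d sample was left out. SOD2, mitochondrial superoxide dismutase, was higher by 5.89 on day 3 (adjusted p = 1e-10) and 5.83 on day 6 (adjusted p = 1.11e-10). ATP5F1B, a subunit of ATP synthase, was lower by 0.70 and 0.98 (adjusted p = 0.000257 and 1.36e-05). SIRT3, a mitochondrial deacetylase, was higher by 1.25 on day 3 (adjusted p = 0.00894) and overlapped with BEFs on day 6. DIO2, which activates thyroid hormone in brown fat, was at 4.84, 11.4 and 9.84 CPM in CiADCs-3d and 9.50, 2.01 and 2.003 CPM in CiADCs-6d, against 0.125 to 0.40 CPM in BEFs. CiADCs-6d replicate 1 stood apart from the other day 6 samples for DIO2. DIO2 passed the filter only through induced samples and could hardly be called lower. UCP1, the uncoupling protein of brown fat, had no count in BEFs or CiADCs-3d and 0.138, 0.275 and 0.108 CPM in CiADCs-6d, too few for a test.

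For each of the 9 genes, the genes with the most similar profile were found by Pearson's r of log2 CPM over all 9 samples, given as a description since the points share 3 groups. PPARG was nearest to BCAT2 (r = 0.97), which starts the breakdown of branched-chain amino acids, Col8a2 (0.96), DPYSL2 (0.95), SUCNR1 (0.95) and GPR180 (0.95). PPARA was nearest to HES2 (0.99), MEGF9 (0.99) and Mafg (0.99). NRIP1 was nearest to ABCC4 (0.9993), CTSC (0.9985) and NMES1 (0.998), and NCOA4, another coactivator, also ranked among its 5 nearest. NCOA1 was nearest to TMEM38A, EGLN3, RND2, CD48 and S100A9 (0.9973 to 0.9979). MED1 was nearest to PSMD1 (0.996), and NCOA2 to PSMD6 (0.993), both subunits of the proteasome. PPARGC1B had the weakest match, with ERRFI1 (0.91).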

How the data were processed

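RNA-seq of 9 samples was analysed from 1 table. The authors deposited expected counts per gene, which are estimated and not normalized, and FPKM, which they had scaled by gene length and library size. RSEM, StringTie 1.3.1, HISAT2 2.2.4 and fastp 0.18.0 are listed in the submitters' processing notes with no role, the methods name TopHat and HTSeq, and the genome build is not given in the sources used here, so no coordinates are printed. The methods describe oligo(dT) enrichment. Whether counting used strand is not stated.

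Counts were rounded (all 81 values of the 9 genes were whole) and filtered by filterByExpr of edgeR 4.0.16 (minimum count 10, minimum total 15), which kept 14020 genes and removed 7492. All 9 samples entered 1 quasi-likelihood fit with TMM scaling and a coefficient for each group, with p-values adjusted by Benjamini-Hochberg over 14020 genes. A gene was called at an adjusted p under 0.05. CPM values were TMM-scaled. Shares and ratios were computed from FPKM and tested by exact permutation (SciPy 1.17.1). The pipeline (R 4.3.3, limma 3.58.1, DESeq2 1.42.0, Python 3.11.15) was tested on simulated data.

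The 9 genes, the lists of related genes and the marker lists, all from textbook knowledge, were chosen with earlier results of these data known. List genes were matched by NCBI Gene ID. HELZ2, MED8 and PAX7 were not matched. The text names all 9 genes, the retinoid X receptors, up to 4 genes of each list with the largest absolute log2 fold change on either day against BEFs, called and at 5 CPM or more in the group where they were higher, and 10 well-known targets whatever their result. OLR1 and DIO2 came in by size. One gene that the rule named is not reported here. The similarity rule took the 5 genes with the highest Pearson's r on log2 CPM with a prior count of 2. Alternatives were DESeq2, other scalings and filters, limma on log2(FPKM + 1) and log2(FPKM + 0.1), a replicate block, only the 2 groups compared, the omission of single samples and a fold threshold. The joint omission of the samples numbered 1 of both days was added after the data were seen. Reads without molecular identifiers are not independent molecules, so a count of reads is not a count of molecules.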

Additional observations from a re-analysis of the deposited data

Results flagged for a closer look

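For all 3 receptor genes the log2 fold change against the same BEFs differed between day 6 and day 3, by the coefficient of day 6 over day 3 in the edgeR fit. PPARD itself was not called against BEFs on day 3 or day 6 (adjusted p = 0.0669 and 0.407). The log2 fold change of PPARG against BEFs differed by -1.05 between day 6 and day 3 (adjusted p = 0.00497), with all day 6 samples below all day 3 samples. For PPARA the difference was 0.76 (adjusted p = 0.000802) and for PPARD 0.40 (adjusted p = 0.0311), with all day 6 samples above all day 3 samples. Of these, only the call of PPARD was lost under any of the 20 alternatives tried. None of the 6 coregulators had a difference between the days that passed the threshold (adjusted p = 0.134 to 0.763).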

How the results depend on the processing

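Against BEFs, the calls of NRIP1, NCOA1, MED1, NCOA2 and PPARGC1A on both days, PPARG on day 3 and PPARA on day 6 held under every alternative that could be fitted, with the filter of at least 10 counts in every sample removing PPARGC1A. With a log2 fold change of at least 1 required, the number of the 9 genes called lower was 0 on day 3 and 0 on day 6 (against 2 each), and the number called higher on day 6 than on day 3 was 0 (against 2). That number was 1 when only the 2 groups compared were fitted. With each sample left out in turn, the numbers higher ranged from 4 to 5 on day 3, 4 to 5 on day 6 and 1 to 2 between the days, and the numbers lower from 2 to 3, 2 to 2 and 1 to 1. The PPARG share of the summed receptor FPKM differed from BEFs by 20.8 to 24.2 percentage points on day 3 and 0.777 to 3.19 on day 6, and by -21.9 to -18.5 between the days.

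Differences near 0 changed sign without a call. PPARGC1B on day 3 was 0.0001 with total-count scaling, 0.018 with at least 10 counts in every sample, 0.0036 with limma on log2(FPKM + 1) with or without a filter, 0.0097 on log2(FPKM + 0.1), 0.0092 with only the 2 groups, and -0.20 to 0.22 with single samples left out. With single samples left out it was -0.0429 to 0.32 on day 6 and -0.0269 to 0.27 between the days, and without the samples numbered 1 of both days the last was 0.33. NRIP1 between the days was -0.0106 with upper-quartile scaling and -0.039 to 0.12 with single samples left out. On log2(FPKM + 1) the differences of PPARGC1A shrank to 0.29 and 0.44.

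The labels give the groups the same replicate numbers, but same-numbered samples did not deviate together (r across genes from -0.37 to 0.15). The sample numbered 1 of each induced day deviated with samples 2 and 3 of the other day (r from 0.205 to 0.279). Deviations from the mean of only 3 samples cannot show whether same-numbered samples shared an animal or batch. With the replicate number as a block, the 9 genes kept their numbers of calls (4 higher and 2 lower on day 3, 5 and 2 on day 6, 2 and 1 between the days). Over all genes, 2019 were higher and 1904 lower on day 6 than on day 3, and 3224 and 3690 without the samples numbered 1 of both days, 1006 and 1079 without CiADCs-6d replicate 3, and 1358 and 1185 with only these 2 groups. With fewer than 50 counts of PPARGC1A in every sample, depth limits the precision of its fold changes.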
